A study of Mus musculus with 11 samples.

Results

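The array labelled Kidney was compared with the arrays labelled Liver and Lung, which are 3 of the 11 arrays of a mouse series titled for the action of RAS isoforms in melanocytes. Each array paired Cy3-labelled RNA of 1 sample with Cy5-labelled RNA of a mouse embryo reference, and each label had 1 array. The other 8 arrays carried the labels 3T3, HRAS_MEL, VA_475, VA_MEF, D6_MEL, NRAS_MEL, Heart and Melan A. The Kidney, Liver and Lung samples shared the Trizol extraction, the dyes and the reference. The labels name no strain, age, sex, genotype or number of animals for the organ RNA. With 1 array per label there is no spread between samples and no test, so every difference below is between single arrays. The spread between probes of a gene on these arrays is the only error that can be given.

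Values are log2 ratios of own RNA over embryo reference, with the median of each array set to 0. The deposited sign was turned, because reference over own RNA is the likely direction of the table. It is not stated, and the sample titles put the sample first. Under the opposite direction all signs would be inverted, and the genes given here as higher in Kidney would be lower. Marker genes of organs, kidney genes among them, gave this direction, so their height in Kidney is no independent support for it. Base 2 was assumed for the logarithm. A ratio depends on how much of the transcript the embryo reference holds, so levels were compared between arrays for 1 gene and not between genes.

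The label Kidney is used as given. The 3 kidney markers, Miox, Lrp2 and Tmem174, were highest of the 11 arrays in Kidney. They were chosen with earlier results of these data known, so their height is no independent support for the label either. The labels Liver and Lung went against their markers. Albumin (Alb) stood at 2.54 in the array labelled Lung and -6.95 in the array labelled Liver, while surfactant protein D (Sftpd) stood at 5.75 in the array labelled Liver and -1.25 in the array labelled Lung. Those arrays are therefore named by their labels throughout. The mean of both, and the higher of both, are the same whichever of them is the liver. The array labelled Melan A held the heart markers Nppb, a natriuretic peptide gene, at 4.42 and Fabp3 at 3.13. Nppb stood at -0.44 in Kidney, -0.53 in the array labelled Liver and -0.49 in the array labelled Lung. Another heart muscle gene, Myl4, was not high in the array labelled Melan A, at -0.52. In the array labelled Heart, Nppb stood at -0.01, Fabp3 at -1.90 and Myl4 at 0.15. None of these was high under that label, and the array is likewise named by its label.

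The kidney filters blood in the glomerulus and recovers most of the filtrate along the tubule. Proximal tubule cells take up filtered protein by receptor-mediated endocytosis through megalin and cubilin, carry sugars, amino acids and organic ions with solute carriers of their brush border, and run on fatty acids and other mitochondrial fuels. The loop of Henle, distal tubule and collecting duct then adjust sodium, calcium, acid and water.

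Of 7114 genes named by single-symbol probes, 7068 had a value on all 3 arrays. At least 2-fold, 442 of them (6.25%) were higher in Kidney than the mean of the other organ arrays and 386 (5.46%) were lower. Against both arrays separately, 224 genes (3.17%) were at least 2-fold higher in Kidney than each, and 110 (1.56%) were at least 2-fold lower than each. The upper tail reached further: 63 genes were at least 4-fold above both and 11 at least 16-fold, against 14 and 0 below both. The median over all genes was -0.03 for Kidney minus the mean and -0.28 for Kidney minus the higher array. By any margin, Kidney was above the mean for 46.8% of genes and above both arrays for 28.8%. The array labelled Lung was the highest of the 3 for 31.8%, and the array labelled Melan A was above Kidney for 53.5%. These medians and percentages are what each gene list below is to be read against.

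**Figure D1:**
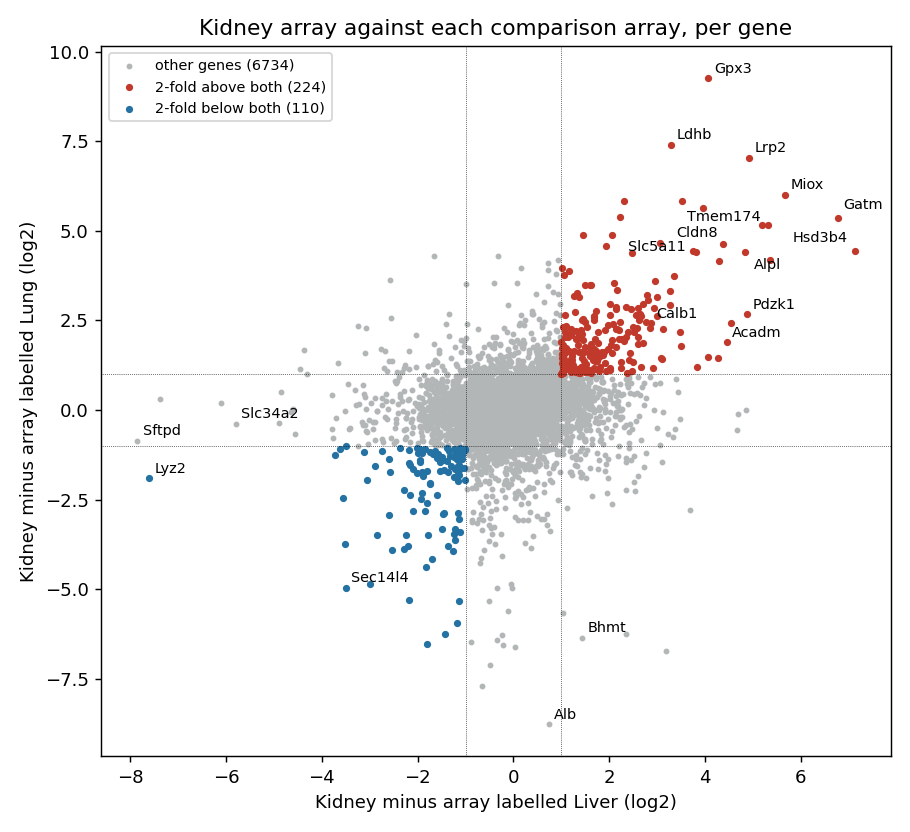
Difference of each of 7068 genes between Kidney and the array labelled Liver (x axis, log2) and between Kidney and the array labelled Lung (y axis, log2); dotted lines mark 2-fold. The 224 genes above both (red) reach further from the origin than the 110 below both (blue), and Alb and Sftpd lie far out along a single axis.

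Promoter sequence was looked at first in the genes that stood highest. HNF1 factors are homeodomain proteins that drive many genes of proximal tubule and liver cells, and GTTAAT, which reads ATTAAC on the opposite strand, is an arm of their binding sequence. The 250 bases before the annotated start were searched on both strands in RefSeq promoters of GRCm38.p6. A gene was counted if any of its windows held the letters. Among genes with a window, this was so for 13 of 179 at least 2-fold above both arrays (7.26%). Over all genes compared it was so for 285 of 5712 (4.99%). Counted by window, and so not in the same unit, the letters were found in 2113 of 32851 windows of all promoters (6.43%). Among the 30 genes highest above both, 26 had a window and 4 of these held the letters (15.4%): Hsd3b4, Alpl, Dab2 and Miox. With 4 genes this share is a description, and a match is not a bound site. The windows of these 4 genes are shown 5′ to 3′ on the gene's strand, with the match in capitals, because they belong to genes among the 30 highest above both. Hsd3b4 has several annotated starts that overlap, and 1 of its windows is printed.
Miox, chr15:89334223-89334472, plus strand: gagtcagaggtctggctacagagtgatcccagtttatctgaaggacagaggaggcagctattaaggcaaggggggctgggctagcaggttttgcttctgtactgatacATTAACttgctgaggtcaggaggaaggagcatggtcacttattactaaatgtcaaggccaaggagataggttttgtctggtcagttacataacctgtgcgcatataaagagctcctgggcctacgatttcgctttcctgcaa
Dab2, chr15:6386498-6386747, plus strand: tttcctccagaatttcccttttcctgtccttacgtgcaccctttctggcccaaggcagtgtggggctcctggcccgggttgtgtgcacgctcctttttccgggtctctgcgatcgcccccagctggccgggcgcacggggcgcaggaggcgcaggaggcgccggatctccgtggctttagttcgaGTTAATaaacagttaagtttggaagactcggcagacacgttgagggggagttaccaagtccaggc
Alpl, chr4:137766476-137766725, minus strand: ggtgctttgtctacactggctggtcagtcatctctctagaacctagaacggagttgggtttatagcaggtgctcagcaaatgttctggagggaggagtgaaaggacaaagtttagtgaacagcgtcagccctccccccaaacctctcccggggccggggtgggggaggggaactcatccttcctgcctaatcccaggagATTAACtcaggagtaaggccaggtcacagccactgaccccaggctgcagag
Hsd3b4, chr3:98510568-98510817, minus strand: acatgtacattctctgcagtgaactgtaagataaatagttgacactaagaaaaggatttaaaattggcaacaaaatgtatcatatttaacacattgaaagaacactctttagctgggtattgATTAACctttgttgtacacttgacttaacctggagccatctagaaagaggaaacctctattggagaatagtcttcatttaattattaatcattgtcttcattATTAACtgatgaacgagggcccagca

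Receptors and adaptors of protein uptake, with the other brush border genes, had the highest median of the 16 kidney lists compared. The list of the kidney markers was not among these. Lrp2 and Tmem174 of the brush border list are kidney markers too, and the lists were written with earlier results of these data known. The rank of the brush border list is therefore partly fixed by choice. Of 16 measured members, 9 were at least 2-fold above the mean and 8 above both arrays, with 0 at least 2-fold below, and the median difference from the mean was 2.46. Kidney was the highest of the 11 arrays for 12 of the 16, where it was highest for 8.94% of all 7035 genes with 11 values. Lrp2 encodes megalin, the large endocytic receptor of the proximal tubule. It stood at 5.60 in Kidney, 0.68 in the array labelled Liver and -1.44 in the array labelled Lung, and the other 8 arrays ran from -1.50 through a median of -1.09 to -0.93. Kidney was 30.3-fold above the higher comparison array and above every other array, and the 2 probes of Lrp2 gave differences from the mean of 5.86 and 6.10.

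Cubn, the cubilin receptor that works with megalin, stood at 0.70 in Kidney, -0.03 in the array labelled Liver and -0.52 in the array labelled Lung. Kidney was again the highest of the 11 arrays, but less than 2-fold above the mean. The endocytic adaptor Dab2, which binds the tail of megalin, stood at 2.04, -0.92 and -1.55 in the same order, with -2.41 to -0.56 in the other 8. Its 2 probes differed from the mean by 2.76 and 3.79, both with Kidney highest. Clcn5, the chloride and proton exchanger of endosomes, stood at 2.82 in Kidney, 0.25 in the array labelled Liver and 0.15 in the array labelled Lung. It was 5.91-fold above the higher of them, while the other 8 arrays reached 1.80. Lgmn, the lysosomal protease legumain, was 2.51 above the higher array on the log2 scale.

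Among the scaffolds, Pdzk1, a PDZ protein that holds carriers in the apical membrane, stood at 4.17 in Kidney, -0.71 in the array labelled Liver and 1.48 in the array labelled Lung. It was 6.42-fold above the array labelled Lung, and the other 8 arrays lay at -1.88 to -0.89. Pdzk1ip1, a small membrane protein that binds Pdzk1, stood at 4.01, 0.06 and -1.61, and at -3.47 to -2.21 elsewhere. Pdzd3, a PDZ protein related to Pdzk1, stood at 4.51, 0.71 and 0.12, and no other array passed 0.86. It belonged to no list. The PDZ scaffold Slc9a3r1 stood at 1.36 in Kidney, 0.02 and 1.13, and Ezr, the ezrin that ties such scaffolds to actin, at 1.60, 0.88 and -2.49. Both were less than 2-fold above the higher array. Tmem174, a membrane protein of proximal tubule cells, stood at 4.85 in Kidney against -0.45 and -0.32. Kidney was 35.9-fold above the higher of these, and the other 8 arrays ran from -0.78 to -0.06.

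Not every brush border member stood high. Dpp4, a peptidase of proximal tubule and other epithelia, stood at 1.71 in Kidney, 1.27 in the array labelled Liver and 2.18 in the array labelled Lung, so Kidney lay between them. Muc1, a mucin that also belongs to the lung epithelium list, stood at 0.36 in Kidney and 3.12 in the array labelled Liver. Lct, the intestinal lactase, was lowest of the 11 arrays in Kidney at -3.34. Alpl, the tissue-nonspecific alkaline phosphatase, belonged to none of these lists and stood at 2.80, -2.02 and -1.60, with -3.18 to -0.65 elsewhere. Kidney was 21.1-fold above the higher comparison array.

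**Figure D2:**
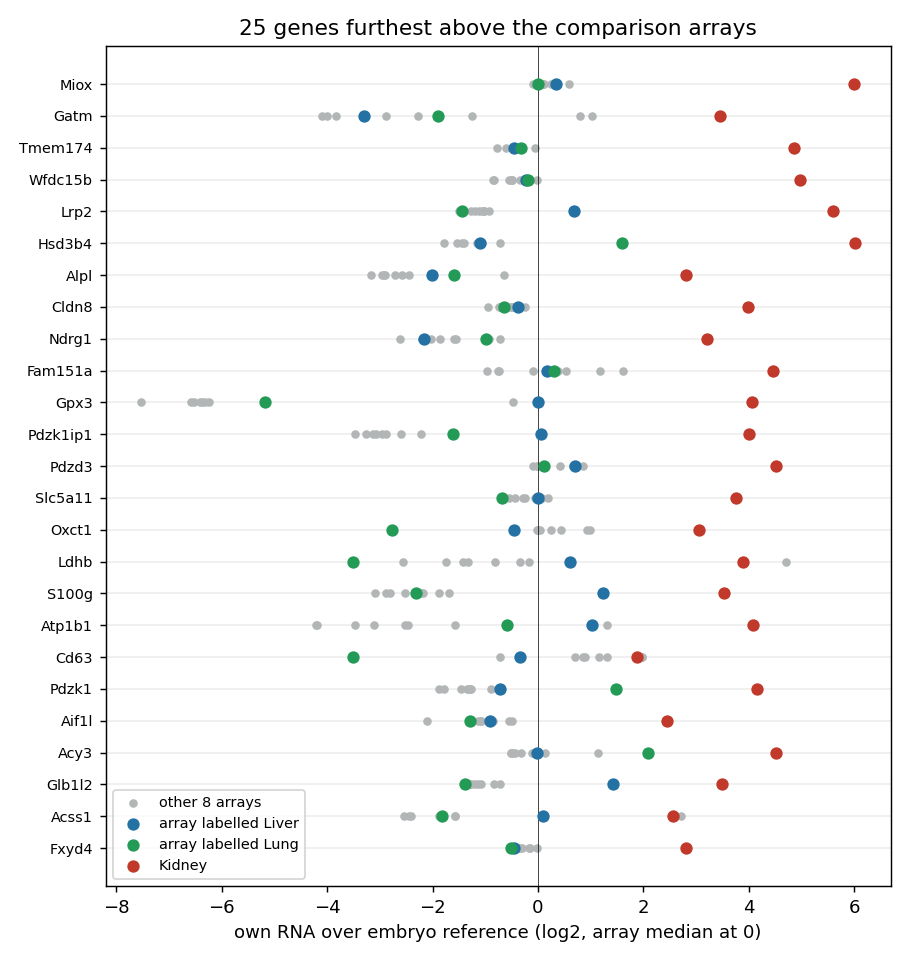
Level of the 25 genes chosen as furthest above the higher comparison array or the mean (rows), on each of the 11 arrays (x axis, log2 own RNA over reference, array median at 0). Kidney (red) lies to the right of the arrays labelled Liver (blue) and Lung (green) in every row, as the choice of genes fixes. Among the other 8 arrays (grey), the array labelled Melan A lies beyond Kidney for Ldhb and Acss1. The array labelled Heart and NRAS_MEL lie beyond Kidney for Cd63.

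Few of the classic apical carriers of the proximal tubule were measured, 3 of 32 listed. Slc6a20a, a sodium-coupled carrier of proline and other imino acids, stood at 2.25 in Kidney, 0.05 in the array labelled Liver and 0.03 in the array labelled Lung, and the other 8 lay at -0.39 to 0.06. Kidney was 4.58-fold above the higher comparison array and above all others. Slc15a2, the high-affinity peptide carrier, was highest of the 11 arrays in Kidney at -0.10, but 0.37 above the array labelled Liver. Slc34a2, the phosphate carrier of lung type II cells, stood at 4.88 in the array labelled Liver and -0.92 in Kidney, below both. That gene also belongs to the lung epithelium list.

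Of 7 organic ion and basolateral carriers measured, 3 were at least 2-fold above the mean, 2 above both and 1 below both, with a median of 0.28. Slc7a8, which exchanges neutral amino acids across the basolateral membrane, stood at 2.56, -0.45 and -0.06 in Kidney and the arrays labelled Liver and Lung, a 6.14-fold difference from the higher. Slc22a5, the carnitine carrier, stood at 2.97, 0.12 and 0.68, 4.89-fold above the higher. For both genes Kidney was above every other array, and the 8 arrays outside the comparison reached -0.79 for Slc7a8 and 0.09 for Slc22a5. Slc22a7, an organic anion carrier of liver and kidney, stood at -0.41 in Kidney, 1.55 in the array labelled Liver and 0.97 in the array labelled Lung, 2.61-fold below the lower.

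Slc5a11 encodes a sodium-coupled carrier of myo-inositol and was furthest above the higher array of the 104 solute carrier genes with a value on all 3 arrays. It stood at 3.75 in Kidney, 0.01 in the array labelled Liver and -0.68 in the array labelled Lung, and the other 8 lay at -0.56 to 0.18. The whole family was a grouping made after values were seen. At least 2-fold, 24 of 104 were above the mean (6.25% of all genes) and 13 above both (3.17%). In the other direction 7 were below the mean (5.46% of all genes) and 3 below both (1.56%). The family's median difference of 0.13 was near the -0.03 of all genes. The share of its members at least 2-fold higher was nevertheless larger than that of all genes. Slc16a13, a monocarboxylate carrier, and Slc44a4, a thiamine pyrophosphate and choline carrier, were picked after their values were seen. They stood 2.59 and 1.94 above the higher array on the log2 scale. At the other end Slc39a4, a zinc carrier, stood at -1.05 in Kidney, 1.22 and 1.18 in the arrays labelled Liver and Lung, and -1.56 to -0.77 elsewhere. Kidney was 4.69-fold below both but within the range of the other 8 arrays.

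Genes of the loop of Henle and distal convoluted tubule followed the brush border. Of 12 measured members, 7 were at least 2-fold above the mean and 5 above both, with 0 below and a median of 1.19. Cldn8, a tight junction claudin of the distal nephron, stood at 3.98 in Kidney, -0.39 in the array labelled Liver and -0.64 in the array labelled Lung, with -0.95 to -0.24 elsewhere. Kidney was 20.7-fold above the higher comparison array. The contrast with Cldn3, another epithelial claudin, was one of direction. It stood at -0.96 in Kidney, 2.60 and 1.49 in the arrays labelled Liver and Lung, and -2.89 to -1.84 in the other 8, so that Kidney lay 5.46-fold below both organ arrays and above the rest.

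Of the calcium handling genes in that list, both calbindins were at least 2-fold above both arrays. S100g, the vitamin D-dependent calbindin-D9k, stood at 3.53 in Kidney, 1.23 in the array labelled Liver and -2.31 in the array labelled Lung. Its 2 probes differed from the mean by 3.93 and 4.20, and no other array passed -1.69. Calb1, calbindin-D28k, averaged 2.56, -0.31 and 0.14, 5.35-fold above the higher, with -0.45 to 0.39 elsewhere. Its 4 probes had Kidney above both arrays but spread from 1.22 to 4.91 (difference from the mean, SD 1.58), so the size of the difference is uncertain. Slc8a1, the sodium and calcium exchanger, stood 1.12 above the mean but below the array labelled Melan A, at 2.66 there and 1.57 in Kidney. Atp2b1, a plasma membrane calcium pump, was 0.72 below the mean.

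Wnk4, the kinase that controls the sodium chloride carrier of the distal convoluted tubule, averaged 2.02, 0.11 and -0.23. Its 2 probes gave differences from the mean of 3.81 and 0.35 (SD 2.44), so only 1 of them placed Kidney 2-fold above. Wnk1, a related kinase, was 0.86 above the mean, with 1.32 in Kidney and 1.22 in the array labelled Liver. The 2 kinases that the WNKs act on, Oxsr1 and Stk39, differed from the mean by 0.13 and -0.28. Ppp1r1b, an inhibitor of protein phosphatase 1, stood at 2.69, 0.67 and 0.03, 4.06-fold above the higher, and was highest of the 11 arrays in Kidney.

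The collecting duct list split. Of 11 measured members, 3 were at least 2-fold above the mean (6.25% of all genes), 2 of them above both (3.17%). Another 3 were below the mean (5.46% of all genes), 2 of them below both (1.56%). The list median was 0.47. Fxyd4, the collecting duct regulator of the sodium pump, stood at 2.82 in Kidney against -0.45 and -0.51, and at -0.43 to -0.02 in the other 8. Kidney was 9.66-fold above the higher of the pair and apart from all other arrays. The keratin genes differed. Krt7 was 2-fold above the mean but not above both, at -0.03 in Kidney, 1.63 in the array labelled Liver and -4.32 in the array labelled Lung. Krt19 was 2-fold below the mean, at -2.12, 0.77 and -1.79 in the same order. The members at least 2-fold below both were Krt8, at -0.99 in Kidney against 0.16 and 0.55, and Krt18, at -2.26 against -0.42 and 0.55. Krt8 and Krt18, keratins of simple epithelium, were lower still in the other 8 arrays, at most -3.86 for Krt8 and -2.30 for Krt18. Keratins are shared by the epithelia of liver, lung and kidney, and cross-reaction between keratin cDNAs was not tested.

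Acid secretion by intercalated cells uses the vacuolar proton pump. Its a4 subunit Atp6v0a4 averaged 2.23 in Kidney against 0.08 and -0.02, but its 2 probes differed from the mean by 4.24 and 0.16 (SD 2.88). Atp6v1a, the catalytic subunit found in all cells, stood at 2.59, 0.12 and -0.23, with both probes near the average (SD 0.34). The 13 pump genes measured were grouped after values were seen. Of them 3 were at least 2-fold above both (3.17% of all genes). By any margin 11 were above the mean (46.8% of all genes), with a median of 0.54. Slc4a1, the anion exchanger of red cells and of acid-secreting duct cells, was 0.88 above the higher array. It stood at -0.63 in Kidney, level with VA_475 at -0.60. Slc4a1 also belongs to the red cell list, where 0 of 7 genes were 2-fold above the mean (6.25% of all genes). The part of red cells in its level was not tested.

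The sodium pump drives transport along the whole tubule. Its beta 1 subunit Atp1b1 stood at 4.08 in Kidney, 1.03 in the array labelled Liver and -0.59 in the array labelled Lung, with -4.21 to 1.32 in the other 8. Kidney was 8.29-fold above the higher comparison array, and the 2 probes gave 3.70 and 4.02 from the mean. The other beta subunits differed less. Atp1b2 stood 0.97 above the higher array, and Atp1b3 lay between the comparison arrays at -0.11.

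Genes of the glomerulus, the filter, went in both directions. Of 10 measured, 2 were at least 2-fold above the mean (6.25% of all genes) and 0 above both (3.17%), with a median of 0.34. The 1 at least 2-fold below the mean (5.46% of all genes) was Cdkn1c. It stood at -4.07 in Kidney, 0.37 in the array labelled Liver and -5.22 in the array labelled Lung. Wt1, the podocyte transcription factor, stood at 0.25 in Kidney, -0.71 and -0.95 in the arrays labelled Liver and Lung, and -2.32 to 0.02 elsewhere. Kidney was the highest of the 11 arrays for Wt1, by 1.95-fold over the higher comparison array. Podxl, which coats podocytes and endothelium alike, stood at 1.55 in Kidney and 1.95 in the array labelled Liver, which also held the highest endothelial median, 2.06 against 0.14 in Kidney. The part of endothelium in the Podxl difference was not tested. In bulk RNA, fewer cells of a type and less RNA per cell cannot be told apart.

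Of 44 transcription factors listed for the kidney 10 were measured, of which 4 were at least 2-fold above the mean, 2 above both and 1 below the mean, with a median of 0.49. Tfcp2l1, a regulator of distal nephron and duct cells, stood at 2.86 in Kidney, 0.06 and -0.22 in the arrays labelled Liver and Lung, and -0.75 to -0.32 in the other 8. Its 2 probes gave 2.84 and 3.04 from the mean. Emx2, a homeobox gene of the urogenital tract, stood at 0.95, -1.06 and -2.01, 4.02-fold above the higher and above all other arrays, of which the highest was -0.08. Cited1, a factor of the embryonic nephron progenitors, stood at -3.22 in Kidney, level with the array labelled Heart at -3.21, and at -2.04 and -2.27 in the arrays labelled Liver and Lung.

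**Figure D3:**
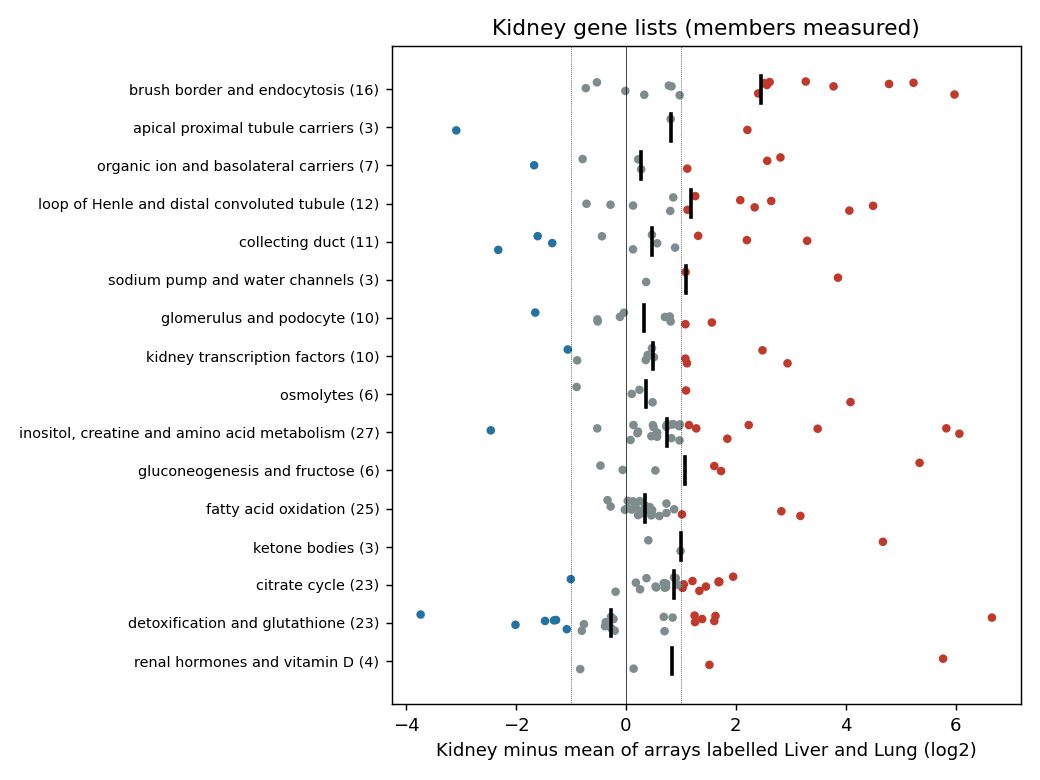
Kidney minus the mean of the arrays labelled Liver and Lung (x axis, log2) for each measured gene (points) of 16 kidney lists, with the number measured in brackets and the list median as a bar; red is at least 2-fold higher and blue at least 2-fold lower. The brush border list lies furthest to the right, at a median of 2.46, and the detoxification list is the only one drawn with a median below 0, at -0.27.

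Among metabolic genes, those of the first step of inositol breakdown and of creatine synthesis were furthest above the higher comparison array. Miox, the myo-inositol oxygenase of the proximal tubule, stood at 6.0 in Kidney, 0.34 in the array labelled Liver and -0.01 in the array labelled Lung, and the other 8 ran from -0.09 through 0.18 to 0.59. Kidney was 50.6-fold above the higher, the largest such difference of all 7068 genes, and 10 arrays lay near 0. Gatm, which makes guanidinoacetate for creatine, stood at 3.46, -3.31 and -1.90, 41.3-fold above the higher. Unlike Miox it varied among the other 8 arrays, from -4.10 to 1.03, with the array labelled Heart at 1.03 and D6_MEL at 0.80.

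These belong to 27 inositol, creatine and amino acid genes with a value on all 3 arrays, of which 7 were at least 2-fold above the mean, 5 above both and 1 below the mean. Their median was 0.75 from the mean and -0.06 from the higher array, and the array labelled Lung was the highest of the 3 for 13 genes, as it was for 31.8% of all genes. Acy3, the aminoacylase that releases acetyl groups from conjugated amino acids, stood at 4.52 in Kidney, -0.02 and 2.09. The mitochondrial arginase Arg2 stood at 2.14, 0.42 and -0.62, and the dipeptidase Cndp2 at 2.03, 0.32 and 0.05, both highest of the 11 arrays in Kidney. Bhmt, which returns a methyl group from betaine to homocysteine, went the other way, with 5.28 in the array labelled Lung, -1.07 in Kidney and -2.49 in the array labelled Liver.

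Of 22 genes listed for gluconeogenesis and fructose use 6 were measured, of which 3 were at least 2-fold above the mean and 2 above both, with a median of 1.07. Ldhb, the lactate dehydrogenase subunit that favours lactate oxidation, stood at 3.89 in Kidney, 0.60 in the array labelled Liver and -3.52 in the array labelled Lung. The array labelled Melan A, which carried heart markers, stood higher still at 4.71, and the other 7 were at most -0.17. Pcx, pyruvate carboxylase, stood at 2.30 in Kidney and 2.56 in the array labelled Lung, against -1.17 in the array labelled Liver. Akr1a1, an aldehyde reductase that also acts on glucuronate, stood at 1.06 against -0.79 and -0.56, and its 2 probes gave 1.69 and 1.77 from the mean.

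Of 25 fatty acid oxidation genes, 22 were above the mean by any margin (46.8% of all genes), but 3 at least 2-fold and 2 of those above both. The array labelled Lung, with its liver markers, was the highest of the 3 for 22 (31.8% of all genes). Their medians were 1.09 in Kidney, -0.54 in the array labelled Liver, 1.71 in the array labelled Lung and 1.91 in the array labelled Melan A. Acadm, the medium-chain acyl-CoA dehydrogenase, stood at 3.13 in Kidney, -1.32 and 1.23, and was 3.73-fold above the higher. Of the 11 arrays only the array labelled Melan A stood above Kidney for Acadm, at 3.62. Nudt19, a coenzyme A hydrolase of kidney peroxisomes, stood at 3.04, -0.44 and 0.85, with no other array above 0.95. Catalase (Cat), the peroxisomal enzyme, showed the more common order, with 3.99 in the array labelled Lung, 1.98 in Kidney and -0.52 in the array labelled Liver.

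Of 3 ketone body genes, 1 was at least 2-fold above both. It was Oxct1, the enzyme that lets tissues other than the liver burn ketone bodies, which stood at 3.06 in Kidney, -0.46 in the array labelled Liver and -2.78 in the array labelled Lung. It was 11.5-fold above the higher, both probes agreed to within an SD of 0.37, and the array labelled Melan A was level with Kidney at 3.05. Acat1, the thiolase that works next to it, stood at 1.32, -0.91 and 1.56, so the array labelled Lung was above Kidney. Acss1, the mitochondrial acetyl-CoA synthetase, stood at 2.57, 0.10 and -1.82, and at 2.72 in the array labelled Melan A.

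Of 23 citrate cycle genes, 21 were above the mean by any margin (46.8% of all genes), 9 at least 2-fold. Above both were 16 by any margin (28.8% of all genes) and 3 at least 2-fold. Their median was 0.87, and 20 of the 23 stood higher in the array labelled Melan A than in Kidney (53.5% of all genes). The 3 above both were Pdha1 of pyruvate dehydrogenase, 1.75 above the higher array, and Idh3a and Idh3g of isocitrate dehydrogenase, 1.67 and 1.59 above it. Probe pairs gave 1.87 and 2.04 from the mean for Pdha1. Idh3g had probes at 1.39 and 2.01, and the 3 of Idh3a ran from 0.92 to 2.22. Sdhb, a subunit of succinate dehydrogenase, stood at -0.44 in Kidney, 0.16 and 0.97, while the catalytic subunit Sdha stood at 1.89, -0.54 and 1.40.

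Oxidative phosphorylation subunits, grouped after values were seen, lay slightly above the comparison arrays. Of 57 genes, 53 were above the mean (46.8% of all genes) and 44 above both (28.8% of all genes) by any margin, yet 9 were at least 2-fold above the mean and 3 above both. Their median level was 0.79 in Kidney, -0.12 in the array labelled Liver, 0.49 in the array labelled Lung and 2.10 in the array labelled Melan A, which was above Kidney for 54 (53.5% of all genes). Cox8a of cytochrome oxidase was an exception, highest of the 11 arrays in Kidney at 1.50 and -0.78 in the array labelled Melan A. Cox4i1 of the same enzyme and Atp5b of ATP synthase were the other 2 above both, 1.04 and 1.03 over the higher array.

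**Figure D4:**
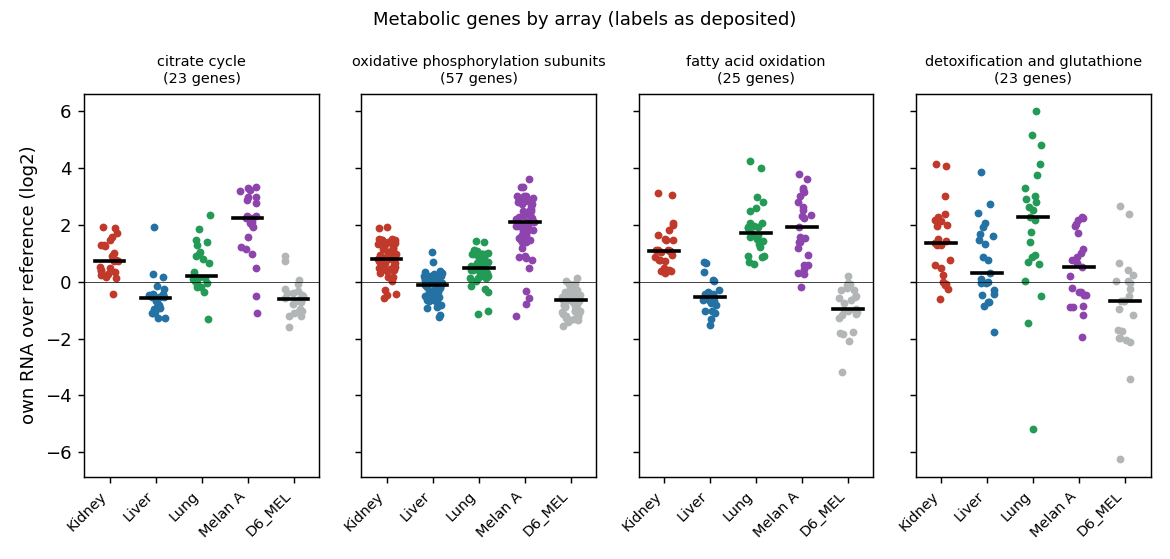
Level (y axis, log2 own RNA over reference, array median at 0) of each gene (points) of 4 metabolic groups on Kidney, the arrays labelled Liver, Lung and Melan A, and D6_MEL, with the group median as a bar. Kidney lies between the arrays labelled Liver and Melan A for citrate cycle, oxidative phosphorylation and fatty acid genes, and the array labelled Lung is highest for detoxification, at a median of 2.28.

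Of 23 detoxification and glutathione genes, 6 were at least 2-fold above the mean (6.25% of all genes), 4 of them above both (3.17%). Another 6 were at least 2-fold below the mean (5.46% of all genes), 3 of them below both (1.56%). The median was -0.27, and the array labelled Lung was the highest of the 3 for 16 (31.8% of all genes). Gpx3, the secreted glutathione peroxidase that the kidney supplies to plasma, stood at 4.07 in Kidney, 0.00 in the array labelled Liver and -5.18 in the array labelled Lung, with -7.53 to -0.47 in the other 8. It was 16.8-fold above the higher, and its difference of 6.66 from the mean was the largest of all genes. Gpx4, which reduces lipid peroxides, stood at 2.40, 1.32 and 0.70, and Gss, glutathione synthetase, at 2.28, -0.06 and 1.40. Gstm5, a glutathione transferase, was 2.77-fold above the higher array but Kidney, at 0.00, was the fifth of the 10 arrays with a value.

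Of the 3 genes below both, which include Xdh, the largest difference was that of Mgst1. This microsomal glutathione transferase stood at -0.13 in Kidney, 2.05 in the array labelled Liver and 5.17 in the array labelled Lung, 4.53-fold below the lower. Its relative Mgst3 went the other way, at 0.77 against -0.47 and -0.49, 2.36-fold above the higher. Ephx1, microsomal epoxide hydrolase, stood at 1.27, 2.42 and 4.15. For Mgst1 Kidney was above the other 8 arrays, which ran from -3.48 to -1.17, while for Ephx1 it was within their range. Several of these families have close paralogs, and cross-reaction between their cDNAs was not tested.

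Hsd3b4, a 3 beta hydroxysteroid dehydrogenase of mouse kidney, stood at 6.01, -1.11 and 1.59, with -1.79 to -0.72 elsewhere, 21.5-fold above the higher. It has near-identical relatives, so the signal may be shared and the gene name is uncertain. Hsd3b1, the relative in the adrenal list, stood at 2.37, -1.03 and 1.49, and its 2 probes gave 0.90 and 3.38 from the mean. Of the 6 adrenal genes measured, Hsd3b1 alone was at least 2-fold above the mean in Kidney and 0 were 2-fold above both. Cyp17a1, a steroid hydroxylase, stood at 0.86 in Kidney, 0.16 and 4.05, and Star, which brings cholesterol into mitochondria, at 0.33, 0.07 and 0.34. Ghr, the growth hormone receptor, stood at 2.62, 0.04 and 2.15, highest of the 11 arrays in Kidney by 1.52 over the mean and 0.47 over the array labelled Lung. Agt, angiotensinogen, was lowest of the 11 arrays in Kidney at -0.33.

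Among 6 osmolyte genes 2 were at least 2-fold above the mean and 1, Slc5a11, above both. Slc6a6, the taurine carrier, stood at 1.82, 0.37 and 1.07. Nfat5, the factor that responds to high salt, lay between the comparison arrays at 0.22.

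Several of the genes highest in Kidney belonged to no list. Wfdc15b, a small protein with a protease inhibitor domain, stood at 4.97 against -0.22 and -0.19, 35.8-fold above the higher, with -0.85 to -0.02 elsewhere. Fam151a stood at 4.46 against 0.16 and 0.30, and Aif1l, an actin-bundling protein, at 2.46 against -0.90 and -1.29. Kidney was the highest of the 11 arrays for each of these genes. Ndrg1, a gene induced by stress and low oxygen, stood at 3.21 against -2.15 and -0.99, and no other array passed -0.73. Glb1l2, a galactosidase-like enzyme, was 4.17-fold above the higher array. Cd63, a protein of late endosomes, was 4.68-fold above the array labelled Liver, but NRAS_MEL and the array labelled Heart, both at 1.97, passed Kidney at 1.89.

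The 10 genes furthest below both arrays were led by Ddx42, an RNA helicase, at -0.53 in Kidney, 2.99 in the array labelled Liver and 3.19 in the array labelled Lung. Sec14l4, a lipid-binding protein, stood at -0.52, 2.98 and 4.43, and Aox3, an aldehyde oxidase, at -0.55, 2.43 and 4.29. In each case Kidney was within the range of the other 8 arrays, which reached 1.82, -0.32 and 0.93. Ctsc, a lysosomal protease rich in immune cells, stood at -0.74, 1.85 and 2.18, with 2 probes at -2.76 and -2.75 from the mean. Rarres2, the precursor of chemerin, stood at -1.67, 0.86 and 2.24, and Lbp, which binds bacterial lipopolysaccharide, at -2.37, -0.13 and 1.11. Hspb8, a small heat shock protein, was second lowest of the 11 arrays in Kidney, at -2.28. Terb1, a meiotic telomere protein, stood at -1.69 in Kidney, the lowest of the 10 arrays with a value, while the next was the array labelled Heart at -0.60. Of these 10 genes only Terb1 was lowest in Kidney among the arrays with a value.

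Markers of other cells were then counted in Kidney. None of 7 leukocyte and macrophage genes was above the mean in Kidney (46.8% of all genes), and the median was -1.29. At least 2-fold, 5 were below the mean (5.46% of all genes) and 2 below both (1.56%). Laptm5, a leukocyte lysosomal protein, stood at -0.84 in Kidney, 1.91 and 0.30, and lysozyme Lyz2, which lung type II cells also express, at -1.43, 6.18 and 0.47. H2-Eb1, a class II antigen gene, was still high in Kidney at 3.31, between 2.49 in the array labelled Lung and 4.71 in the array labelled Liver. The part of immune cells in the genes below both was not tested.

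Of 6 hepatocyte genes 5 were at least 2-fold below the mean (5.46% of all genes), all through the array labelled Lung, and 0 below both (1.56%). Alb stood at -6.21, Apoa1 at -4.65 and Ttr at -2.89 in Kidney, while the array labelled Liver had -6.95, -4.44 and -5.25. Kidney thus stood above the array labelled Liver for Ttr, the plasma carrier of thyroid hormone and retinol-binding protein, and for Serpina1e, a plasma protease inhibitor, at -3.62 against -6.80. All 6 lung epithelium genes were below the array labelled Liver in Kidney. Of 13 fibroblast and smooth muscle genes with a value on all 3 arrays, 1 was at least 2-fold above the mean, near the 6.25% of all genes. Below both by at least 2-fold were 2, Fn1 and Dcn (1.56% of all genes). Fn1, fibronectin, was lowest of the 11 arrays in Kidney at -4.04.

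Endothelial markers lay between the arrays, with Pecam1 at -0.07 in Kidney, 2.46 in the array labelled Liver and -0.32 in the array labelled Lung. Emcn, a sialomucin of capillaries, was the exception, highest of the 11 arrays in Kidney at 1.74. All 3 heart muscle genes were above the mean in Kidney (46.8% of all genes), 1 of them, Fabp3, at least 2-fold (6.25%). All 3 were higher in the array labelled Melan A (53.5% of all genes). Of the 8 arrays outside the comparison, however, Myl4 was lowest in the array labelled Melan A, at -0.52. Lpl, lipoprotein lipase, the 1 fat cell gene measured, was 2.83-fold above the higher array, at 0.93 against -0.57 and -2.55, and 4.56 in the array labelled Melan A. Of 27 cell division genes 4 were above the mean in Kidney by any margin (46.8% of all genes), and the median was -0.48. At least 2-fold, 2 were above the mean (6.25% of all genes) and 5 below it (5.46%). The 2 above were Mcm5, at 0.01 in Kidney against -1.18 and -1.12, and Mad2l1, at 0.59 against -1.59 and 0.47. Mki67 stood at -3.08 and Cdc20 at -2.92 in Kidney, lowest of the 11 arrays for both, against -1.43 and -1.47 in the array labelled Liver.

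**Figure D5:**
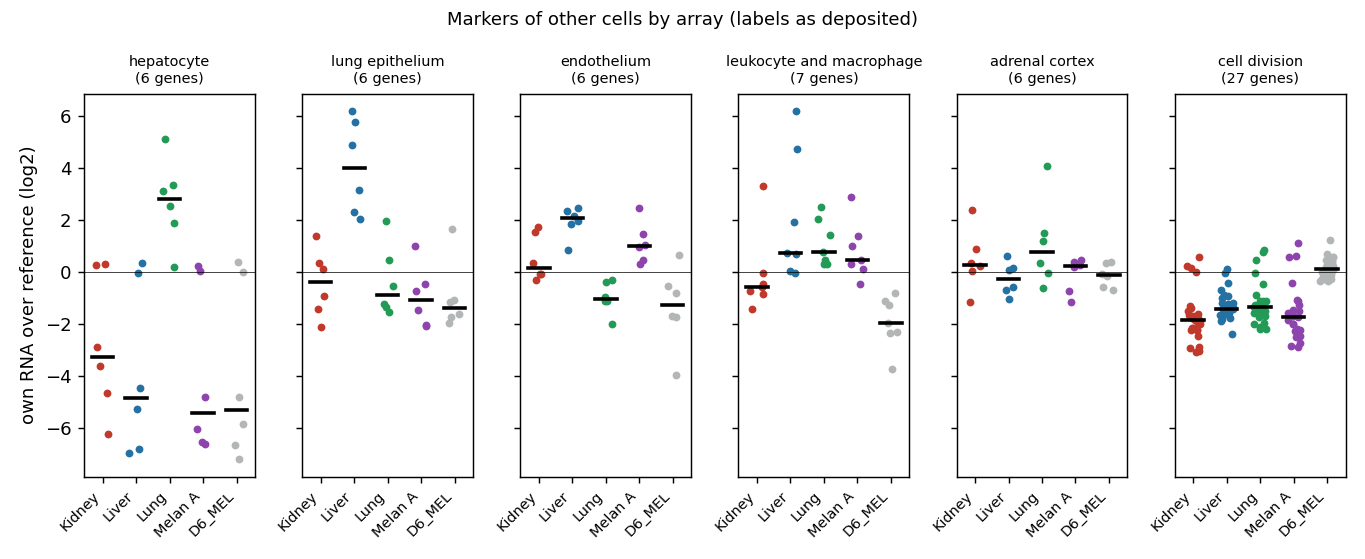
Level (y axis, log2 own RNA over reference, array median at 0) of each marker gene (points) of 6 other cell groups on Kidney, the arrays labelled Liver, Lung and Melan A, and D6_MEL, with the group median as a bar. Hepatocyte genes are high only in the array labelled Lung among the arrays drawn (median 2.81) and lung epithelium genes in the array labelled Liver (median 4.0).

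The other 8 arrays were used to see which differences were shared with arrays outside the comparison. Of the 224 genes above both, 220 had values on all 11 arrays. Kidney was the highest of the 11 for 164 of them (8.94% of the 7035 genes with 11 values). It was at least 2-fold above every other array for 99 (1.41% of the 7035). Any gene so placed is 2-fold above both comparison arrays as well, so all 99 fall among the 220 by definition. The array labelled Melan A stood above Kidney for 34 of the 220 (53.5% of all genes) and each of the other 7 for 6 to 13. The 220 were chosen as high in Kidney, so these counts are partly fixed by that choice. Across all genes Kidney correlated with the arrays labelled Lung at 0.57, Melan A at 0.53 and Liver at 0.41 (Pearson r, a description over genes that share the reference channel). Another 218 genes were 2-fold above the mean but not above both, 118 of them within 2-fold of the array labelled Lung or below it and 100 of them so for the array labelled Liver.

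The genes most like Miox over the 11 arrays were Tmem174 (Pearson r 0.99), Cldn8 (0.99), Wfdc15b (0.99), Fxyd4 (0.98) and Slc5a11 (0.98). Without Kidney, over 10 arrays, these correlations were 0.16, 0.12, 0.24, 0.09 and 0.46, so the likeness rests on that 1 array.

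Probes of the same gene gave the spread between probes within these arrays. Error between arrays or between RNA samples is not part of it and could not be measured. Over 1799 genes with several probes, the SD of Kidney minus the mean between probes had a median of 0.23 and a 90th percentile of 0.71. Of the 57 genes above both that had several probes, every probe placed Kidney above both arrays in 56, and at least 2-fold above both in 27. Genes with 1 probe, such as Miox, Gatm and Gpx3, have no such check.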

How the data were processed

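The values deposited by the authors are log2 ratios of the 2 channels of 11 cDNA arrays (base 2 assumed, not stated), 15170 to 15210 of 15247 probes per array. For background correction and within-array normalization the labels state no method, spot brightness was not analysed, and 1 array per label sets the precision. Deposited column medians lay at -0.03 to 0.03. Signs were turned, arrays were centred on their medians, and probes with 1 symbol in the platform annotation (9600 probes; 214 had several and 5433 were not listed) were averaged per gene; 9492 matched RefSeq by gene number. Kidney was compared with the mean, the higher and the lower of the arrays labelled Liver and Lung, counting 2-fold differences with no test (Python 3.11.15, pandas 2.3.3), by code tested on simulated data. Members and gene lists were chosen with earlier results of these data known. Named genes were the 15 highest above both arrays, 10 more highest above the mean, the 10 lowest below both, up to 6 highest and 3 lowest per list, and 5 like Miox. Cubn, Lgmn, Ezr, Slc9a3r1, Slc16a13, Slc44a4, Atp6v1a, Cat, Cox8a, Cox4i1, Atp5b, Slc8a1 and Wnk1 were named after their values were seen. The 11 alternatives tried changed scaling, centring, probes, logarithm base, comparison arrays and sign.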

Additional observations from a re-analysis of the deposited data

Results flagged for a closer look

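Probes without 1 gene symbol were left out of every comparison above. Of 5605 such probes with a value on all 3 arrays, 129 (2.3%) were at least 2-fold higher in Kidney than in both the array labelled Liver and the array labelled Lung, and the highest stood 4.33 above the higher of them on the log2 scale. Of 9528 probes with 1 symbol, 3.46% were that far above both. They were looked at because they hold signal outside the genes compared, and their genes were not analysed here.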

How the results depend on the processing

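No paired analysis was possible because each label has 1 array. The counts above the mean, below the mean, above both and below both stayed within 1.5 times of the values given under quantile normalization (382, 380, 170 and 133, with 156 of the 224 genes above both shared), without centring, with arrays scaled to 1 SD and with 1 probe per gene. Among the 1810 genes with several probes they were 103, 53, 58 and 16, since fewer genes were tested. If the deposited values are natural logarithms they were 789, 749, 398 and 249. Against 1 comparison array alone the counts above the mean and above both ranged from 560 to 669, and those below from 470 to 710. With the array labelled Melan A added to the comparison 145 genes were above all and 27 below all, and with the array labelled Heart added 31 were below all. With the sign as deposited the counts above and below both were 110 and 224.

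Of 84 named genes past 2-fold, 81 remained so under quantile normalization, 83 without centring, 80 with arrays scaled, 51 with Melan A added and 58 with Heart added. Against 1 comparison array alone the hepatocyte median ranged from -6.38 (the array labelled Lung) to 0.54 (the array labelled Liver). For single genes the measure followed the main comparison. It was Kidney minus the higher array for genes above both and minus the lower for genes below both. For genes between the arrays it was Kidney minus the mean. A turned sign for a gene below both therefore says only that the added array lay below Kidney. With Melan A added, the differences that turned sign were Ldhb -0.82, Acss1 -0.15, Cryab -0.0897, Acadm -0.49, Pdha1 -1.64, Idh3g -0.81, Idh3a -1.95, Mgst3 -1.17 and Lpl -3.64 among genes higher in Kidney. Among genes lower in Kidney they were Ddx42 0.0751, Sec14l4 0.45, Aox3 0.0155, Rarres2 0.0918, Cldn3 1.93, Lbp 0.38, Krt8 2.93, Krt18 1.27, Ephx1 0.39 and Mgst1 1.04. With Heart added they were Cd63 -0.0808, Sec14l4 0.20, Aox3 0.0814, Ctsc 1.89, Rarres2 2.68, Cldn3 1.84, Lbp 1.90, Slc39a4 0.0457, Krt8 3.79, Krt18 0.78, Xdh 1.26, Mgst1 3.13, Serpina1e 0.0284, Laptm5 1.62 and Dcn 2.62. The cause was not tested beyond the added array itself.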
